A study of Mus musculus with 24 samples.

Results

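The 10 genes described here belong to the Bcl2 family, the proteins that decide whether a mitochondrion releases the factors that start apoptosis. They were chosen by gene symbol, with no threshold on a measured value but with earlier results of these data known. They are Mcl1, Bcl2l1 and Bcl2l2 (anti-apoptotic), Bax and Bak1 (effectors), and Bcl2l11, Bbc3, Bmf, Bad and Bid (BH3-only). All 10 were found among the 13534 genes of the whole-cell table and among the 11568 genes of the fraction table, and all 10 passed the filter on low counts.

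The cells were NIH3T3, an established line of mouse embryonic fibroblasts, transfected with a mimic of the microRNA miR-29b or with a scrambled mimic, both at 10 nM and both carrying 3-cyanovinylcarbazole (CNVK), a base analogue that light can crosslink to the opposite strand. All groups therefore carried a CNVK mimic, and no group without transfection was analysed here. Medium was added 24 h after transfection and the cells were collected 8 h after that. RNA was sequenced before (input) and after pulldown in 4 groups of 4 whole-cell libraries, an input and a pulldown for each mimic, and in 8 cytoplasmic and nuclear libraries with 1 per combination of fraction, mimic and step. Each library started from 5 ng of RNA, or 6 ng in the case of input replicate 4 of the miR-29b mimic.

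Anti-apoptotic family members such as Mcl1 hold the effectors Bax and Bak1 in check at the outer mitochondrial membrane. BH3-only proteins relay stress signals by binding the anti-apoptotic members or the effectors, and free effectors then form the pores that let cytochrome c out to activate caspases. MicroRNAs of the miR-29 family repress mRNAs that carry a match to their seed, and Mcl1 is among the best known miR-29 targets, while several BH3-only genes have been described as miR-29 targets in neurons.

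The mature sequences show what a miR-29b mimic can pair with. They are printed 5′ to 3′ from RefSeq (GRCm38.p6), with the seed, positions 2 to 8, in capitals.
mmu-miR-29b-3p: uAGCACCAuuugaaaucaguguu
mmu-miR-29a-3p: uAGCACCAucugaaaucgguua
mmu-miR-29c-3p: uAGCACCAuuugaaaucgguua
All 3 share the seed, whose perfect DNA match is TGGTGCT (TGGTGCTA with the added base of an 8mer site). The mature miR-29b arm lies at chr6:31063025-31063047 on the minus strand in Mir29b-1 and at chr1:195037091-195037113 on the plus strand in Mir29b-2. The sequences of the 2 CNVK mimics themselves are not printed because no file used here holds them.

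Whole-cell libraries held between 7409157 and 55153996 listed counts and fraction libraries between 5320421 and 20142591. Whether the libraries of a group are separate cultures is not in the labels, so the spread behind each p-value may be technical. The headers of the authors' table name replicates 1 to 3 lysed and replicate 4 intact. The main model has no term for this difference, so it is also part of the spread behind each p-value. In replicate 4 of the miR-29b input 22.8% of all genes were more than 1.5-fold above the mean of replicates 1 to 3, against 13.8% in the scrambled input, 16.7% in the miR-29b pulldown and 0.674% in the scrambled pulldown. Replicate 3 of the miR-29b pulldown lay between replicates 1 and 2 in 9 of 10 members and in 71.5% of all genes. Whether that library is independent of replicates 1 and 2 is not in the labels and was not tested. The n = 4 per group given below counts libraries, with replicate 3 as a full one. Results are therefore also given for replicates 1 to 3, for replicates 1, 2 and 4, and for 10 libraries (leaving out every replicate 3, and replicate 4 of both the miR-29b input and the scrambled pulldown). Of 10 fibroblast markers 9 were in the table, summing to between 4200 and 5460 CPM (read counts brought to a common library size) in the inputs. Of the markers of other cell types, 1 of 5 epithelial (Krt8), 0 of 4 endothelial, 1 of 5 leukocyte (Cd68) and 2 of 5 muscle genes (Des and Acta1) were listed, summing to at most 5.59 CPM per cell type in any library.

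The main comparison sets pulldown over input with miR-29b against pulldown over input with the scrambled mimic, and is called mimic-specific enrichment below. Of the 10 members 7 rose, 1 fell (Bad) and 2 (Bcl2l1 and Bid) did not pass an adjusted p of 0.05 (edgeR quasi-likelihood test, Benjamini-Hochberg over 12915 genes). Over all genes 26.2% passed, 17.0% higher and 9.21% lower. The median log2 change was 1.88 over the members and −0.10 over all genes. Since the members were chosen with earlier results of these data known, these shares and medians are a description and not an independent test of the family. Among these 10 members the increases took in all 3 roles. They included 2 of 3 anti-apoptotic members (role median 1.80), both effectors of the set (2.23) and 3 of 5 BH3-only members (1.95). The members' 7 increases kept their call under all 3 other scalings, while Bad lost its call with the authors' library totals (log2 change −0.72, edgeR adjusted p = 0.147). Upper-quartile scaling moved the median of all genes by −0.29 and gave 1662 higher and 2400 lower, and the authors' totals moved it by 0.31 and gave 2466 and 283, against 2192 and 1190 here.

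**Figure D1:**
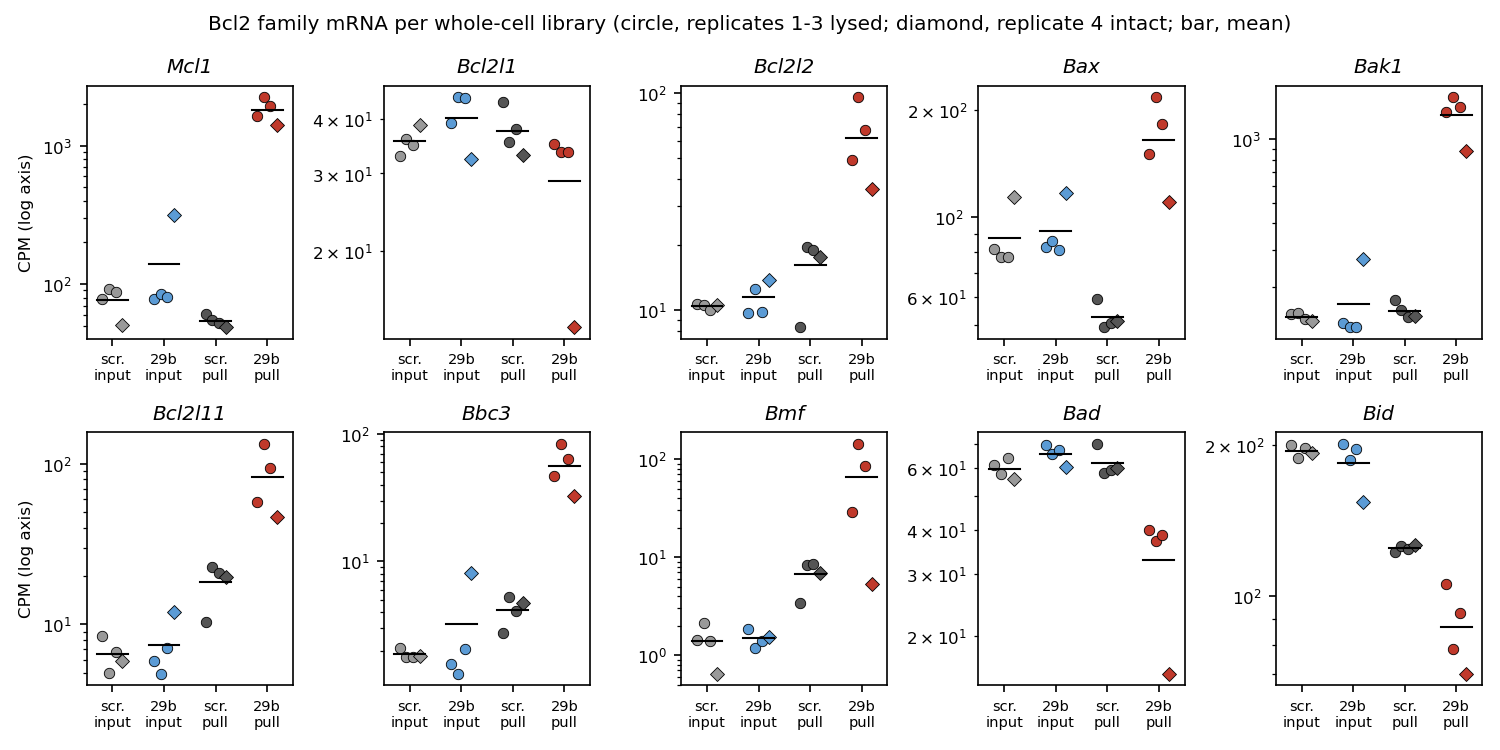
CPM (log axis, a separate scale per gene) of the 10 members in each of the 16 whole-cell libraries. Circles are replicates 1 to 3 (lysed), diamonds replicate 4 (intact) and bars group means. The 4 miR-29b pulldown libraries lie above the 4 scrambled pulldown libraries in Mcl1, Bcl2l2, Bax, Bak1, Bcl2l11 and Bbc3, and below them in Bad and Bid.

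Mcl1 (ENSMUSG00000038612, chr3:95656944-95663179, GRCm38) encodes a short-lived anti-apoptotic protein that binds Bak1 and BH3-only proteins. In miR-29b libraries it was measured at 78.5, 84.4, 80.7 and 314 CPM in input replicates 1 to 4 and at 1624, 2226, 1929 and 1402 CPM in the pulldown. In scrambled libraries it was at 77.6, 92.3, 87.0 and 50.5 CPM in the input and at 60.7, 55.4, 52.6 and 49.0 CPM in the pulldown. The miR-29b pulldown stood far above every other library, and replicate 4 of the miR-29b input stood alone above the other inputs, which overlapped between mimics. Mimic-specific enrichment was 4.19 ± 0.56 on the log2 scale (SE, n = 4 per group, edgeR adjusted p = 6.58e-05), rank 11 of 12915 genes. With that input library left out it was 5.02, and in replicates 1, 2 and 4 Mcl1 was still called higher.

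Bcl2l2 (ENSMUSG00000089682, chr14:54883366-54890858) encodes Bcl-w, another protector of the mitochondrial membrane. Its miR-29b input libraries held 9.62, 12.5, 9.79 and 13.7 CPM and the pulldown libraries 49.0, 95.6, 67.7 and 36 CPM. The scrambled inputs held 10.7, 10.5, 9.99 and 10.5 CPM and the pulldowns 8.32, 19.5, 19.0 and 17.5 CPM. Replicate 1 of the scrambled pulldown was lowest of all, and its other 3 libraries lay between the inputs and the miR-29b pulldown. Mimic-specific enrichment was 1.80 ± 0.40 on the log2 scale (SE, n = 4 per group, edgeR adjusted p = 0.00323). The call was lost in replicates 1, 2 and 4 (edgeR adjusted p = 0.054) and in the 10 libraries (0.07).

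Bcl2l1 (ENSMUSG00000007659, chr2:152758732-152833803) encodes Bcl-xL, which guards the same membrane and binds both effectors. With miR-29b it was at 39.2, 44.8, 44.7 and 32.3 CPM in the input and at 35.0, 33.6, 33.6 and 13.4 CPM in the pulldown. Scrambled libraries gave 32.8, 35.9, 34.8 and 38.7 CPM in the input and at 43.8, 35.4, 38.0 and 33.1 CPM in the pulldown. All 4 groups overlapped, and only replicate 4 of the miR-29b pulldown lay outside the range of the others. The mimic-specific value was −0.56 ± 0.33 on the log2 scale (SE, n = 4 per group, 95% interval −1.25 to 0.14, edgeR adjusted p = 0.238). In replicates 1 to 3, where the spread was smaller, it was −0.49 and passed (edgeR adjusted p = 0.0196). Of the anti-apoptotic members, then, Mcl1 and Bcl2l2 were recovered more with miR-29b, and Bcl2l1 was not.

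Bak1 (ENSMUSG00000057789, chr17:27019812-27028627) encodes the effector that sits in the outer mitochondrial membrane. Its level with miR-29b was 135, 130, 129 and 271.5 CPM in the input and at 1349, 1577, 1415 and 884.5 CPM in the pulldown. Its level with the scrambled mimic was 149.5, 150.3, 141 and 137.5 CPM in the input and at 172, 155, 143 and 146 CPM in the pulldown. The 4 miR-29b pulldown libraries stood above all others, and replicate 4 of the miR-29b input was the next highest library. Mimic-specific enrichment was 2.88 ± 0.34 on the log2 scale (SE, n = 4 per group, edgeR adjusted p = 2.34e-05), or 3.29 with that input library left out.

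Bax (ENSMUSG00000003873, chr7:45461695-45466903) encodes the effector that moves from the cytosol to the mitochondrion. The miR-29b libraries gave 82.8, 86.1, 81.0 and 117 CPM in the input and at 150.5, 216, 182 and 110.3 CPM in the pulldown. The scrambled libraries gave 81.5, 77.6, 77.7 and 114 CPM in the input and at 59.2, 49.4, 50.7 and 51.3 CPM in the pulldown. Replicate 4 was the highest input with either mimic, and the scrambled pulldown lay below every other library. Mimic-specific enrichment was 1.58 ± 0.29 on the log2 scale (SE, n = 4 per group, edgeR adjusted p = 0.000795). It was made of an increase over input with miR-29b (0.85, edgeR adjusted p = 0.00251) and a decrease with the scrambled mimic (−0.74, edgeR adjusted p = 0.0103). The increase over input was lost in replicates 1, 2 and 4 (edgeR adjusted p = 0.0553), where the miR-29b input of replicate 4 lay above the pulldown of the same number.

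Among the BH3-only genes, Bbc3 (ENSMUSG00000002083, chr7:16308398-16318334) encodes Puma, a p53-induced killer protein that binds all anti-apoptotic members. Its miR-29b libraries held 1.57, 1.32, 2.07 and 8.09 CPM in the input and at 46.4, 83.2, 63.2 and 32.7 CPM in the pulldown. Its scrambled libraries held 2.10, 1.78, 1.78 and 1.82 CPM in the input and at 2.73, 5.22, 4.12 and 4.73 CPM in the pulldown. Its inputs rested on as few as 27 counts, apart from 358 in replicate 4 of the miR-29b input. The miR-29b pulldown did not overlap any other group. Mimic-specific enrichment was 2.88 ± 0.66 on the log2 scale (SE, n = 4 per group, edgeR adjusted p = 0.00451), and rose to 3.94 with input replicate 4 of that mimic left out. In replicates 1, 2 and 4 it was 2.65 and missed the threshold (edgeR adjusted p = 0.0762).

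Bmf (ENSMUSG00000040093, chr2:118528757-118549686) encodes a BH3-only protein that is held at the cytoskeleton until stress frees it. With miR-29b it was at 1.82, 1.18, 1.40 and 1.54 CPM in the input and at 29.1, 142, 85.5 and 5.25 CPM in the pulldown. With the scrambled mimic it was at 1.41, 2.15, 1.39 and 0.648 CPM in the input and at 3.41, 8.28, 8.57 and 6.84 CPM in the pulldown. In the miR-29b pulldown replicates 1 to 3 were above all scrambled libraries, and replicate 4 was within them. Mimic-specific enrichment was 3.14 ± 0.96 on the log2 scale (SE, n = 4 per group, edgeR adjusted p = 0.0234). The call was lost without replicate 2 of the miR-29b pulldown (2.44, edgeR adjusted p = 0.0584), in replicates 1, 2 and 4 (0.149) and in the 10 libraries (0.242), and replicate 4 alone gave −1.54.

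Bcl2l11 (ENSMUSG00000027381, chr2:128126038-128162547) encodes Bim, which can bind every anti-apoptotic member and activate the effectors. Its CPM with miR-29b was 5.89, 4.95, 7.18 and 12.0 CPM in the input and at 57.9, 132.5, 94.2 and 46.4 CPM in the pulldown. Its CPM with the scrambled mimic was 8.52, 4.98, 6.71 and 5.95 CPM in the input and at 10.4, 22.8, 20.8 and 19.8 CPM in the pulldown. Both pulldowns lay above their own inputs. The lowest scrambled pulldown library lay under replicate 4 of the miR-29b input. Mimic-specific enrichment was 1.95 ± 0.49 on the log2 scale (SE, n = 4 per group, edgeR adjusted p = 0.00762), and missed the threshold in replicates 1, 2 and 4 (edgeR adjusted p = 0.094).

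Bad (ENSMUSG00000024959, chr19:6941861-6951905) encodes a BH3-only protein whose binding to Bcl-xL is switched off by growth factor signalling. With miR-29b it was at 69.7, 65.8, 67.3 and 60.3 CPM in the input and at 40.0, 37.2, 38.7 and 15.7 CPM in the pulldown. With the scrambled mimic it was at 61.1, 57.7, 64.2 and 55.9 CPM in the input and at 70.1, 57.8, 59.2 and 59.9 CPM in the pulldown. The miR-29b pulldown was below every other library, while the other 3 groups overlapped. Mimic-specific enrichment fell by 1.05 on the log2 scale (SE 0.31, n = 4 per group, edgeR adjusted p = 0.019). The call was lost in replicates 1, 2 and 4 (edgeR adjusted p = 0.091) and in the 10 libraries (0.133).

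Bid (ENSMUSG00000004446, chr6:120893119-120917062) encodes the BH3-only protein that caspase 8 cleaves to link death receptors to mitochondria. The level with miR-29b was 201, 187, 196 and 154 CPM in the input and at 106, 78.6, 92.7 and 70.25 CPM in the pulldown. The level with the scrambled mimic was 199, 188, 196.5 and 193 CPM in the input and at 123, 126, 124 and 127 CPM in the pulldown. The order was inputs above scrambled pulldown above miR-29b pulldown, with no overlap between these 3 levels and with overlap between the 2 inputs. With both mimics Bid thus made up a smaller share of the pulldown libraries than of their inputs, which is not a measure of the amount recovered. The mimic-specific difference of −0.45 ± 0.20 on the log2 scale did not pass (SE, n = 4 per group, edgeR adjusted p = 0.119). It passed with upper-quartile factors (−0.74, edgeR adjusted p = 0.0126) and with DESeq2 (−0.45, adjusted p = 0.0334).

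The authors' deposited table marks predicted miRNA sites per gene, read here from its column names, since their source is not given. It marks any site in Mcl1, Bak1, Bmf, Bcl2l2 and Bbc3, which are 5 of 10 members against 3.76% of 13534 genes, and an 8mer site in Mcl1, Bak1 and Bmf, against 1.09% of genes. All 5 members with a marked site were among the 7 that rose, and of the 5 without one, Bax and Bcl2l11 rose, Bad fell, and Bcl2l1 and Bid did not pass. The shares of all marked and all unmarked genes that rose were not computed, so this split has no background to set it against. In the authors' deposited table Mcl1, Bak1 and Bbc3 are marked as positive hits, against 4.19% of genes. Its score PE, whose formula was not recovered, averaged 42.5 for Mcl1, 20.3 for Bbc3, 14.6 for Bmf and 11.0 for Bak1 over the lysed replicates in the authors' deposited table. The same column of the authors' deposited table gives 6.48 for Bcl2l11, 5.48 for Bcl2l2, 2.73 for Bax, 0.04 for Bcl2l1, −0.35 for Bad and −0.80 for Bid. For Bmf the authors' deposited table has a PE of at least 11.1 in each lysed replicate and 0.787 in the intact one. The matching seed sites were not located here, because no annotation with untranslated regions was used.

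Set directly against the scrambled pulldown, the miR-29b pulldown held more of the same 7 members and less of Bad and Bid, while Bcl2l1 did not pass (log2 change −0.38, edgeR adjusted p = 0.202). Over all genes 45.4% passed, 24.5% higher and 20.9% lower. This comparison shares its pulldown libraries with the one above, so its values are given beside it and not as separate support. Mcl1 was 33.0-fold higher (log2 change 5.04, edgeR adjusted p = 3.59e-07), Bbc3 13.1-fold (3.72, edgeR adjusted p = 1.84e-05), Bmf 9.49-fold (3.25, edgeR adjusted p = 0.001) and Bak1 8.47-fold (3.08, edgeR adjusted p = 1.78e-07). The Bmf value was 2.54 on the log2 scale with pulldown replicate 2 of miR-29b left out. Bcl2l11, Bcl2l2 and Bax were 4.45-fold, 3.83-fold and 3.13-fold higher (edgeR adjusted p = 0.000127, 4.89e-05 and 1.04e-05). Bad was 1.88-fold and Bid 1.44-fold lower (edgeR adjusted p = 0.00289 and 0.00703). The 4 libraries of each mimic did not overlap in 6 members that were higher (all but Bmf) and in 2 that were lower, against 22.8% and 21.1% of all genes. With the authors' library totals neither Bad nor Bid passed (edgeR adjusted p = 0.0638 and 0.433).

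Over its own input, the miR-29b pulldown held more of the same 7 members and less of Bad and Bid, against 28.4% higher and 23.2% lower, together 51.6%, of all genes. Bmf had the highest increase of all 12915 genes tested, 43.9-fold (5.46 ± 0.76 SE on the log2 scale, edgeR adjusted p = 2.65e-05, n = 4 per group), from inputs of at most 1.82 CPM, in a pulldown whose replicate 4 held 5.25 CPM. With pulldown replicate 2 left out its log2 change was 4.75. Bbc3 was 16.8-fold, Mcl1 12.9-fold, Bcl2l11 11.0-fold, Bak1 7.86-fold and Bcl2l2 5.44-fold higher, with edgeR adjusted p from 8.04e-07 to 8.78e-06. With input replicate 4 left out, the log2 changes of Bbc3 and Mcl1 went from 4.07 and 3.69 to 5.11 and 4.503. Bad was 2.00-fold and Bid 2.12-fold lower (edgeR adjusted p = 0.00121 and 1.68e-05). Bcl2l1 was at −0.48 in log2 terms (edgeR adjusted p = 0.0972), and in replicates 1 to 3 it passed (−0.30, 0.0241). All 4 pulldown libraries lay above all 4 inputs in 6 of the 7 that rose (not Bax) and below them in Bad and Bid, against 24.3% and 18% of all genes. The order of the members thus differed from that of mimic-specific enrichment, where Mcl1 and not Bmf came out highest.

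The scrambled mimic recovered some members too, which is the background of the pulldown. Bmf (4.99-fold, 2.32 ± 0.69 SE on the log2 scale, edgeR adjusted p = 0.0157, n = 4 per group) and Bcl2l11 (2.84-fold, 1.51 ± 0.35 SE, edgeR adjusted p = 0.00358) rose over the scrambled input, and Bax (1.67-fold lower, adjusted p above) and Bid (1.56-fold lower, edgeR adjusted p = 0.0027) fell. These are 2 higher and 2 lower of 10 members, near the shares of all genes (18.5% and 17.4%, together 35.9%). Libraries of pulldown and input did not overlap in Bmf, Bcl2l11 and Bbc3 (above) or in Bax and Bid (below), against 21.3% and 19.6% of all genes. Bbc3 was at 1.20 on the log2 scale and did not pass (edgeR adjusted p = 0.0631). It passed in replicates 1 to 3 (1.18, edgeR adjusted p = 0.00324). All 4 calls of this comparison were lost in replicates 1, 2 and 4 and in the 10 libraries. Mcl1, Bak1, Bcl2l1, Bcl2l2 and Bad lay between −0.50 and 0.64 on the log2 scale without passing.

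**Figure D2:**
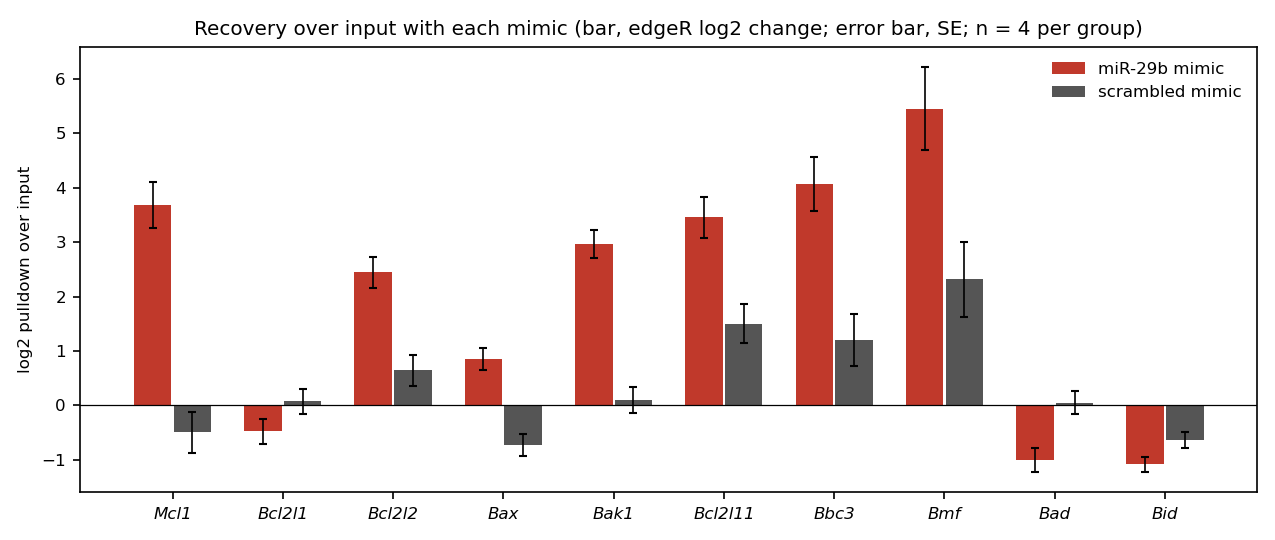
Log2 change of pulldown over input (vertical axis) for the 10 members with the miR-29b mimic (red) and the scrambled mimic (grey), from edgeR with 4 libraries per group. Error bars are SE. Bmf, Bcl2l11 and Bbc3 have positive bars with either mimic, whereas Mcl1 and Bak1 reach 3.69 and 2.97 with miR-29b and −0.50 and 0.09 with the scrambled mimic.

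Between the inputs, where a change in mRNA level with the mimic would appear, 0 of 10 members passed with edgeR and 0 with DESeq2. Before adjustment 1 member, Mcl1, was under 0.05 with edgeR (adjusted p = 1), against 4.68% of all genes, and 0.0542% of all genes passed after adjustment, all higher (0% lower). The libraries of the 2 inputs overlapped in all 10 members, while 2.6% of all genes lay fully above and 2.18% fully below. In these bulk libraries fewer cells expressing a gene and less RNA of it per cell cannot be told apart. Mcl1 was at 0.86 on the log2 scale (95% interval 0.04 to 1.68) and at 0.05 with input replicate 4 of miR-29b left out. Bbc3 was at 0.84 (95% interval −0.17 to 1.85) and at −0.20 without that library. The other 8 members lay between −0.08 and 0.20 on the log2 scale. Over all genes, replicates 1 to 3 alone gave 82 higher and 95 lower.

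Replicate 4 moved the members in both miR-29b groups. In its miR-29b input, Bbc3 was at 4.89 times the mean of replicates 1 to 3, Mcl1 at 3.86, Bak1 at 2.07 and Bcl2l11 at 1.99, while Bid and Bcl2l1 were at 0.792 and 0.754. In its miR-29b pulldown all 10 members were below the mean of replicates 1 to 3, from 0.0613 times for Bmf to 0.761 times for Bid, whereas 57.6% of all genes were below. In its scrambled libraries the members' ratios lay between 0.847 and 1.17 in the pulldown, and in the input between 0.392 for Bmf and 1.44 for Bax. Raised most in the miR-29b input of replicate 4 were Bbc3, Mcl1, Bak1 and Bcl2l11. These 4 were among the 7 of 10 members that rose in mimic-specific enrichment. How often this held over all genes was not computed, and that input library is itself part of the mimic-specific comparison. A link between the 2 was not tested. The part of the RNA amount and of the intact procedure in the shifts of replicate 4 was not tested.

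The sets of libraries gave the same direction for all 8 called members except Bmf. Replicates 1 to 3 called all 10 members, 7 higher and 3 lower, against 24.4% and 19.1% of all genes. Replicates 1, 2 and 4 called 3, Mcl1, Bak1 and Bax, all higher, against 7.78% higher and 1.81% lower. The 10 libraries called 5, adding Bbc3 and Bcl2l11, against 9.76% and 1.38%. For replicate 4 alone, with 1 library per group and no test, the mimic-specific values on the log2 scale were 2.20 for Mcl1, 1.62 for Bak1, 1.07 for Bax, 0.66 for Bbc3 and for Bcl2l2, and 0.23 for Bcl2l11. Those of the other members were −0.53 for Bid, −1.05 for Bcl2l1, −1.54 for Bmf and −2.04 for Bad.

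**Figure D3:**
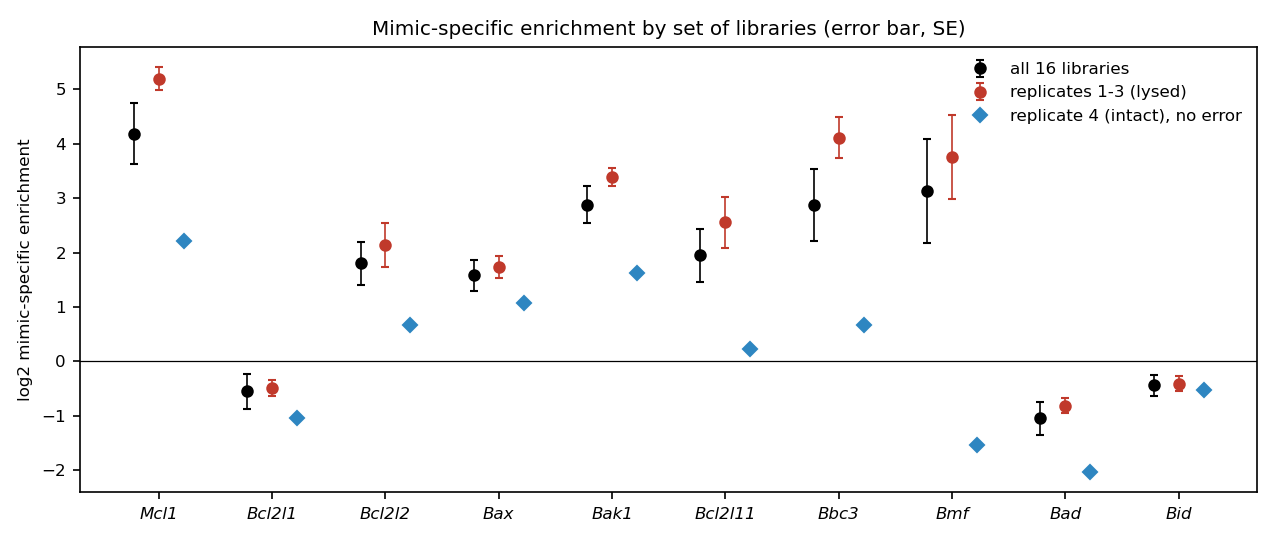
Mimic-specific enrichment (log2, vertical axis) of the 10 members in all 16 libraries (black), in replicates 1 to 3 (red) and in replicate 4 alone (blue, no error). Error bars are SE from edgeR. Mcl1, Bak1 and Bax stay above 1 in all 3 sets, while Bmf falls from 3.14 in all libraries to −1.54 in replicate 4 alone.

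In the cytoplasm, with 1 library per group and no test, the miR-29b pulldown held at least 2-fold more of 4 members and at least 2-fold less of 3 than the scrambled pulldown, against 20.3% and 16.9% of 11568 genes. Mcl1 stood at 542 CPM with miR-29b and 89.2 CPM with the scrambled mimic, a ratio of 6.07 (95% exact binomial interval 5.44 to 6.79, counting error only). Bbc3 was at 13.6 and 4.38 CPM (ratio 3.11, interval 1.86 to 5.52) and Bmf at 9.56 and 3.61 CPM (2.65, 1.49 to 5.06), both on few counts. Bcl2l2 was at 21.2 and 10.1 CPM (2.10, 1.48 to 3.06). Bcl2l1 was lowest of the members, at 15.1 and 58.8 CPM (0.256, 0.204 to 0.32), followed by Bad (0.46) and Bid (0.47). Bak1, at 220 and 206 CPM, did not differ by 2-fold there (1.07, 0.983 to 1.16).

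Relative to the inputs of the same fraction, cytoplasmic mimic-specific enrichment on the log2 scale was 2.77 for Mcl1, 2.15 for Bbc3 and 1.24 for Bmf, and −2.02 for Bcl2l1 and −1.10 for Bad. Of 10 members 3 were thus at least 2-fold higher and 2 lower, against 19.3% and 16.5% of all genes. Bcl2l2 (0.79), Bak1 (0.54), Bcl2l11 (0.29), Bax (−0.29) and Bid (−0.66) stayed within 2-fold. With the authors' library totals, which moved the median of all genes by 0.52, Bax turned to 0.25, 5 members were at least 2-fold higher and only Bcl2l1 was lower.

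In the nucleus, Mcl1 and Bak1 were at least 2-fold higher in the miR-29b pulldown and no member was 2-fold lower, against 1.26% and 1.96% of all genes. Mcl1 was at 239 CPM with miR-29b and 85.5 CPM with the scrambled mimic (ratio 2.79, 95% exact binomial interval 2.55 to 3.06). Bak1 was at 60.6 and 27.2 CPM (2.23, 1.89 to 2.63). Nuclear mimic-specific enrichment was 1.84 for Bak1 and 1.54 for Mcl1 on the log2 scale, with 1.83% of all genes at least 2-fold higher and 2.31% lower. The other 8 members lay between −0.45 (Bcl2l2) and 0.72 (Bmf). Bak1 thus passed 2-fold in the nucleus and not in the cytoplasm (where it did, at 1.09, with the authors' library totals). Bbc3 and Bmf passed 2-fold in the cytoplasm alone, where 19.3% of all genes did, against 1.83% in the nucleus. Ranked among all genes, Bmf stood at percentile 86.1 in the cytoplasm and 95.5 in the nucleus. Bbc3 stood at 96.9 and 93.8, and Bak1 at 68 and 99.8. The difference between fractions was not tested, with 1 library each.

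**Figure D4:**
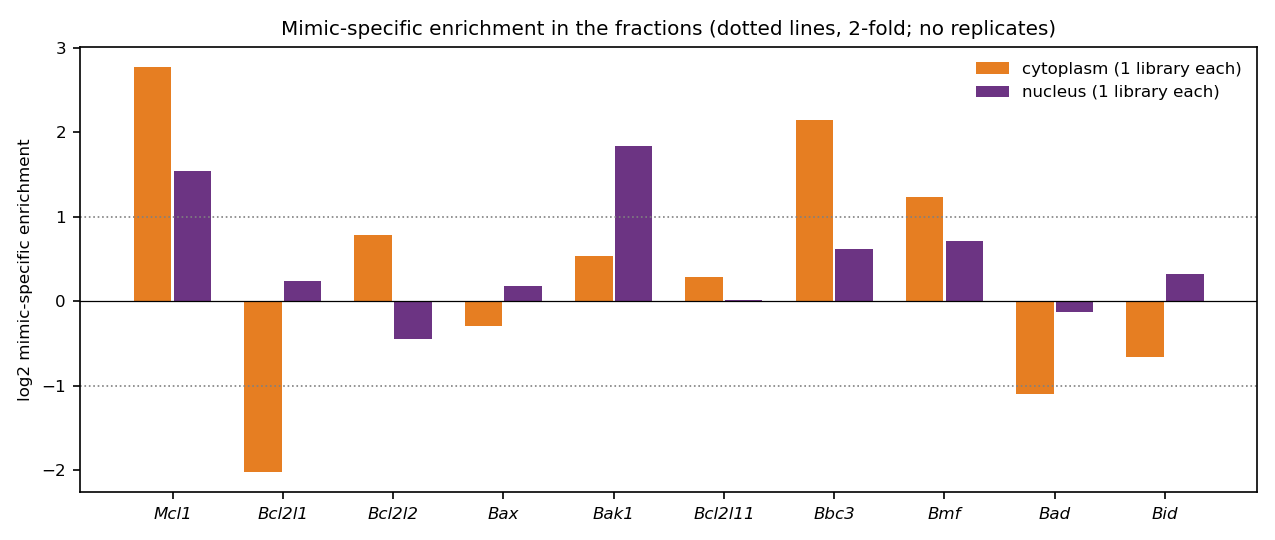
Mimic-specific enrichment (log2, vertical axis) of the 10 members in cytoplasmic (orange) and nuclear (purple) libraries, 1 library per group and no error. Dotted lines mark 2-fold. Mcl1 passes 2-fold in both fractions, Bak1 in the nucleus (1.84), and Bcl2l1 lies at −2.02 in the cytoplasm and 0.24 in the nucleus.

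Between the fractions' inputs, Bak1 and Bad were the members most weighted to the cytoplasm. The nuclear over cytoplasmic log2 ratio of Bak1 was −2.28 with miR-29b and −2.03 with the scrambled mimic, that of Bad −1.86 and −1.65, and that of Bid −1.20 and −1.22. Bcl2l2 was weighted to the nucleus with either mimic (1.38 and 1.51). Bcl2l1 passed 2-fold with miR-29b (−1.19) and not with the scrambled mimic (−0.88). In all, 1 member was 2-fold higher and 4 lower in the nucleus with miR-29b, against 25.1% and 25.9% of all genes, and 1 and 3 with the scrambled mimic, against 23.8% and 24.0%. Nuclear and cytoplasmic libraries were scaled to each other without a spiked standard known here, so these ratios show order within a library pair and not amounts per cell.

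Apoptosis genes outside the 10 members were taken from 6 lists and compared in mimic-specific enrichment, where 17.0% of all genes rose. Of 15 other Bcl2 relatives 6 were in the table, and 1 rose, a share near that of all genes, and 0 fell. It was Bcl2l13, a mitochondrial receptor protein, at 1.10 ± 0.27 (SE) on the log2 scale (edgeR adjusted p = 0.007). Bcl2l12, at 0.85, and Bnip3, at 0.49, did not pass (edgeR adjusted p = 0.0804 and 0.112). Neither did Bcl2 itself, at 0.28, nor Bok, at −0.47 (edgeR adjusted p = 0.642 and 0.244). Of 14 apoptosome and caspase genes 5 rose and 0 fell, with a median of 0.75. They included Aifm1, the apoptosis inducing factor, at 2.49 ± 0.38 SE (edgeR adjusted p = 0.000223), and Htra2, a protease released from mitochondria, at 1.43 ± 0.19 SE (6.39e-05).

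Of 5 inhibitor of apoptosis (IAP) genes 2 rose and 0 fell: Xiap, which blocks caspases, at 2.29 ± 0.60 SE (edgeR adjusted p = 0.00974) and Birc3 at 1.16 ± 0.27 SE (0.00482), while Birc2 was at 0.67 (0.0599). Of 7 genes of the death receptor arm 4 rose and 0 fell, with a median of 1.54. The 3 with the smallest p were Fas, a death receptor, at 1.68 ± 0.22 SE (edgeR adjusted p = 4.94e-05), Tnfrsf1a, the TNF receptor, at 1.54 ± 0.21 SE (8.39e-05), and Fadd, the adaptor below them, at 1.64 ± 0.32 SE (0.00144). Of 5 mitochondrial partners of Bax and Bak 3 rose and 0 fell: Mff and Dnm1l of the fission machinery at 1.00 ± 0.21 SE and 0.95 ± 0.20 SE, and the channel Vdac1 at 0.67 ± 0.20 SE (edgeR adjusted p = 0.00211, 0.00262 and 0.0192). Of 4 genes of Mcl1 turnover only Fbxw7, a ubiquitin ligase subunit that marks Mcl1 for degradation, rose, at 2.97 ± 0.77 SE (edgeR adjusted p = 0.00938), and the ligase Huwe1 and the deubiquitinase Usp9x were at −1.08 and −0.96 (0.0932 and 0.244). Genes that promote and genes that restrain apoptosis were thus among those that rose.

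No gene of these 6 lists fell with the scaling used here, against 9.21% of all genes, but upper-quartile scaling gave 1 lower in the apoptosome list, 2 in the death receptor arm and 1 in Mcl1 turnover, and left Vdac1 without a call (edgeR adjusted p = 0.2). RLE factors gave 1 lower in the death receptor arm, and replicates 1 to 3 gave 1 lower each in the IAP, death receptor and Mcl1 turnover lists. Leaving out input replicate 4 of miR-29b gave 1 lower each in the apoptosome and death receptor lists. In replicates 1, 2 and 4 only 4 apoptosome and 3 death receptor genes were called higher, and none of the other 4 lists.

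Across the 16 whole-cell libraries, genes with a profile most like that of Mcl1, by Pearson's r of log2 CPM among 9709 genes, were Eif4h (0.997), Dennd6a (0.993), Bet1l (0.992) and Tigd2 (0.992). Among the members Bak1 came closest (r = 0.978, rank 99), then Bbc3 (0.927), Bcl2l2 (0.874), Bax (0.856), Bcl2l11 (0.818) and Bmf (0.73). Bcl2l1, Bid and Bad ran opposite to Mcl1 (−0.508, −0.745 and −0.763). The points share their libraries and depth, and the correlations carry no test. Mcl1 lay between 10.5 and 11.1 log2 CPM in the miR-29b pulldown and at most at 8.29 elsewhere, so r largely restates that difference. For Bcl2l1 the lowest library was replicate 4 of that pulldown, at 3.75 log2 CPM.

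Several members overlap other annotated genes: Bcl2l1 (Cox4i2 and Gm32211), Bak1 (Ggnbp1), Bcl2l11 (Acoxl), Bad (Gpr137 and Gm19053) and Bid (Gm17812). The strand setting of the counting is not given in the sources used here, so reads of these pairs could not be told apart in the counts. Mcl1, Bcl2l2, Bax, Bbc3 and Bmf overlap no other gene in the RefSeq gene table.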

How the data were processed

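Gene counts were used as the authors deposited them in a table of 16 whole-cell libraries and a table of 8 fraction libraries. STAR 2.3.0 and the mm10 build are named, per the submitters' processing notes. The counting tool and strand setting were not given in these sources. Also in the deposited tables are CPM, which the authors computed from each count plus 1 over a library total, as the values show, and which were not tested here, the PE score of the authors, and the authors' other marks for predicted sites and hits. Repeated lines were dropped (518 of 14052 lines, and 11 of 11579), listed counts made up 48.9 to 87.3% of the authors' whole-cell library totals, and 619 genes failed edgeR's filter on low counts.

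Counts were scaled by TMM and tested in 1 model over the 4 groups with edgeR 4.0.16 (glmQLFit, glmQLFTest) in R 4.3.3 with limma 3.58.1, and p-values were adjusted over 12915 genes. Library CPM were recomputed from TMM-scaled listed counts. Fraction values were log2 ratios with a prior count of 5 for genes reaching 20 counts summed over 8 libraries, called at 2-fold, with 95% intervals from counting alone, without replicates. The steps were run on simulated counts with changes of a fixed fold in well-counted genes and the same spread for all genes. That simulation held no difference between lysed and intact replicates, so it covers neither that difference nor genes with few counts. Alternatives were other scalings, DESeq2 1.42.0, filters, blocks and sets of libraries.

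All 10 members were named, and of each further list up to 3 genes with the smallest p, with Bcl2 and Bok added. The genes most like Mcl1 were the 5 with the highest Pearson's r among genes with a mean of at least 5 CPM. Some items that these rules select are not reported here. The members and lists were chosen with earlier results of these data known.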

Additional observations from a re-analysis of the deposited data

Results flagged for a closer look

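In 9 of 40 groups of 4 libraries (10 members in 4 groups), the highest or lowest library lay far from the other 3 by Dixon's ratio of gap to range. For 4 values from the same normal distribution such a gap is expected in about 0.05 of groups. The share over all genes was not computed. The 40 groups reuse the same 16 libraries, and replicate 4 was the intact one, so the count is not a result about the members. Of the 9 groups, 6 were replicate 4 with the miR-29b mimic, and 4 of the 6 were in the input. There Mcl1 was at 313.8 CPM (the others at 78.45 to 84.42), Bak1 at 271.5 CPM (129 to 134.6), Bax at 116.6 CPM (81 to 86.13) and Bbc3 at 8.093 CPM (1.324 to 2.071). In the miR-29b pulldown of replicate 4, Bcl2l1 was at 13.37 CPM (33.57 to 34.96) and Bad at 15.67 CPM (37.19 to 40.04). Bax was also high in scrambled input replicate 4, at 113.9 CPM (77.64 to 81.46). Replicate 1 was highest for Bbc3 in the scrambled input, at 2.1 CPM (1.78 to 1.82), and for Bad in the scrambled pulldown, at 70.09 CPM (57.84 to 59.92).

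In 4 members mimic-specific enrichment had opposite signs in cytoplasm and nucleus, a difference that was not tested. On the log2 scale it was −0.29 and 0.18 for Bax (0.25 in the cytoplasm with the authors' library totals) and −2.02 and 0.24 for Bcl2l1. For Bcl2l2 it was 0.79 and −0.45, and for Bid −0.66 and 0.33. The share of all genes with opposite signs was not computed. The median over all genes was 0.04 in the cytoplasm and 0 in the nucleus.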

How the results depend on the processing

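Of the members' values under settings other than leaving out 1 library, 783 kept their side of the threshold or stayed within error, 15 gained and 23 lost a call, 56 without a test moved and 3 reversed. Signs changed in 2 of the 56 and in 15 of the 783: 5 were not tested, and 10 were tested values without a call, between inputs in replicates 1 to 3 or the 10 libraries. The reversals came with replicate 4 alone, which has 1 library per group: Bmf −1.54 mimic-specifically and −0.38 between pulldowns, and Bax −0.08 over its miR-29b input. Their cause was not tested. Leaving out 1 library changed the sign of 12 uncalled values.

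Mimic-specifically, members called lower (1 here) numbered 2 with upper-quartile factors and with DESeq2, 0 with the authors' totals, 3 in replicates 1 to 3, and 0 in replicates 1, 2 and 4 and in the 10 libraries, and members called higher (7) numbered 3 in replicates 1, 2 and 4. All genes called lower (1190) numbered 748 at 2-fold, 2400 with upper-quartile factors, 283 with the authors' totals, 1984 with lysed or intact as a block, 2457 in replicates 1 to 3, 233 in replicates 1, 2 and 4 and 180 in the 10 libraries. Those called higher (2192) numbered 1004 and 1273 in the last 2 sets.

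Between pulldowns, members lower (2) numbered 0 at 2-fold and with the authors' totals, and 1 in replicates 1, 2 and 4 and in the 10 libraries. All genes lower (2703) numbered 1311 at 2-fold, 4333 with upper-quartile factors, 1089 with the authors' totals, 1463 in replicates 1, 2 and 4 and 955 in the 10 libraries, where 2086 were higher (3163).

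For the miR-29b pulldown over input, members lower (2) numbered 1 at 2-fold, and all genes lower (2991) numbered 1500 at 2-fold, 1570 with the authors' totals, 1808 in replicates 1, 2 and 4 and 1877 in the 10 libraries. Upper-quartile factors gave 2925 higher and 4208 lower there, and the authors' totals 4242 higher (3672). For the scrambled pulldown over input, members lower (2) numbered 0 at 2-fold, and both directions 0 in replicates 1, 2 and 4 and in the 10 libraries, while members higher (2) numbered 4 with only the groups compared. All genes higher (2392) numbered 1400 at 2-fold, 1096 in replicates 1, 2 and 4 and 709 in the 10 libraries, and all genes lower (2246) 741, 994 and 442, and 3386 in replicates 1 to 3.

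Between inputs, all genes higher (7) numbered 4 at 2-fold, 1 with the authors' totals, 32 with DESeq2, 14 with lysed or intact as a block, 82 in replicates 1 to 3, and 0 in replicates 1, 2 and 4, in the 10 libraries and with only the groups compared. All genes lower (0) numbered 13 with DESeq2, 3 with lysed or intact as a block and 95 in replicates 1 to 3. In fractions the authors' totals gave 1 member lower in the cytoplasmic pulldown (3), 5 higher (3) and 1 lower (2) in cytoplasmic mimic-specific enrichment, and 5 lower (3) in nucleus over cytoplasm with the scrambled mimic.

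Leaving out 1 library at a time gave 6 to 7 members higher and 1 lower mimic-specifically, 1925 to 2740 genes higher and 783 to 1449 lower, and between inputs 1 to 11 genes higher and 0 to 2 lower. Replicate numbers are shared between groups, but deviations of same-numbered libraries correlated between −0.096 and 0.365 where the scrambled pulldown was involved and between 0.332 and 0.717 elsewhere, so they were not taken as pairs. With the replicate block 1931 genes were called lower mimic-specifically and 1 between inputs, and Bcl2l1 gained a call over its miR-29b input (−0.52, edgeR adjusted p = 0.0478).

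Depth limits Bmf and Bbc3 most, whose inputs hold the lowest counts of the members, and fraction values rest on 1 library each.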
